A study of Mus musculus with 6 samples.

Results

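The genes of the ubiquitin conjugating (E2) enzyme family were examined in M II oocytes of aged mice matured in vitro with or without quercetin. Members were the protein-coding genes whose symbol, mapped from the Ensembl identifier, starts with *Ube2*, which gave 37 genes of the 53465 in the count table. *Ube2e3* was placed among its paralogues *Ube2e1* and *Ube2e2*, and beside *Ube2c* and *Ube2s*, which work in meiosis. Of the 37 genes, 30 had enough reads to be tested. With quercetin, *Ube2e3*, which the paper already lists as up-regulated in these data, was at 2.55 times its control level. It was the only member with non-overlapping pools and a fold change over 2. Non-overlapping pools alone were seen in 10.6% of all tested genes. *Ube2e1* and *Ube2e2* overlapped between the groups in the main scaling of counts. Scaled by library size only, *Ube2e1* was lower in every quercetin pool. After adjustment over all tested genes, no member passed the threshold in the main test, edgeR's quasi-likelihood test, while *Ube2e3* passed in DESeq2 and in the likelihood ratio test of edgeR.

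RNA of 6 pools of oocytes was sequenced as SMART-Seq libraries, 3 control and 3 quercetin. Both groups came from female Kunming (KM) mice of 9 to 10 months, a naturally aged outbred stock, and each pool joined 15 oocytes from 3 mice. Immature oocytes stripped of cumulus cells were cultured for 16 h in M16 medium, without quercetin or with 10 μM quercetin, a plant flavonol, and those that reached M II were collected. Quercetin was dissolved in DMSO, and whether the control medium held DMSO is not given in the sources used here.

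Ubiquitin is passed along a chain of enzymes. An E1 enzyme activates it, an E2 enzyme takes it over as a thioester on a cysteine, and an E3 ligase brings the loaded E2 to the protein to be marked. The E2 often sets which kind of ubiquitin chain is built. In the oocyte, the anaphase-promoting complex (APC/C) marks cyclin B and securin for destruction so that chromosomes separate in meiosis, and it uses *Ube2c* to place the first ubiquitins and *Ube2s* to lengthen the chain. UBE2E proteins carry the catalytic core of UBE2D enzymes behind a longer N-terminal extension, and UBE2E3 is known to be carried into the nucleus by importin 11 and has been linked to the stress factor NRF2.

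The coding sequence around the active site is shown for the UBE2E genes, for *Ube2d3*, the gene with the highest mean level, and for both APC/C enzymes. This stretch holds the cysteine on which every catalytic member depends and lets the paralogues be set beside other members. Each window is read 5′ to 3′ on the coding strand, and capitals mark the codons of the conserved HxN motif and of the cysteine that carries ubiquitin.
Ube2e1: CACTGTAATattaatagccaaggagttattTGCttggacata
Ube2e2: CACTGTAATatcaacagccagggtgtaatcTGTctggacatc
Ube2e3: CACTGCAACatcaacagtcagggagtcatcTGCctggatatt
Ube2d3: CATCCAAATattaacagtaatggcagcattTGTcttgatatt
Ube2c: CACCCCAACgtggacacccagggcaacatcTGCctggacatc
Ube2s: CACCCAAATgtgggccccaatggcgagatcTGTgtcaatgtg

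On GRCm38, with GENCODE M21 gene models, the windows lie in coding exons. That of *Ube2e1* is chr14:18284356-18284397 on the minus strand, in exon 5 of 6, and that of *Ube2e2* is chr14:18586933-18586974 on the minus strand, in exon 4 of 5. The *Ube2e3* window is chr2:78918711-78918752 on the plus strand, in exon 5 of 6, and the *Ube2d3* window is chr3:135459999-135460040 on the plus strand, in exon 5 of 8. *Ube2c* has its window at chr2:164771947-164771988 on the plus strand, in exon 4 of 6, and *Ube2s* at chr7:4810470-4810511 on the minus strand, in exon 3 of 4.

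Of the 42 bases, *Ube2e3* shares 34 with *Ube2e2*, 31 with *Ube2e1*, 30 with *Ube2c*, 28 with *Ube2d3* and 20 with *Ube2s*. Over the aligned coding sequences, *Ube2e3* was 77.4% identical to *Ube2e2* and 75.8% to *Ube2e1*, against 69.7% to *Ube2d3*, 58.6% to *Ube2c* and 57.4% to *Ube2s*. The longest identical run in those alignments was 27 bases between *Ube2e3* and *Ube2e2* and 26 bases between *Ube2e3* and *Ube2e1*. Over whole transcripts, *Ube2e3* shared 1 word of 31 bases with *Ube2e1*.

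The study's qPCR primers for *Ube2e3* are shown because they mark a stretch of the gene, coding for the N-terminal extension, in which the paralogues differ. The forward primer is GACAGGCAAAGGTCGGATGAT and the reverse primer is ATCTGCATCTGAACTGCCACT, each of 21 bases. In the product, capitals mark the stretches covered by the primers.
Ube2e3 product: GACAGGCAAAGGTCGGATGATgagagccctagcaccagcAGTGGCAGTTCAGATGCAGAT
The product of 60 bases is chr2:78870494-78870553 on the plus strand of GRCm38, in coding sequence of exon 2 of 6, and 6 of the 7 *Ube2e3* transcripts hold both primer sites. The closest sites in *Ube2e1* differed at 7 bases from the forward and 8 from the reverse primer, and those in *Ube2e2* at 8 and 5 bases.

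The deposited values are read counts per gene, and totals ran from 7880467 to 9938743 per pool. Levels are given in CPM, counts scaled to the size of the library, after TMM scaling, whose factors ran from 0.92 to 1.06. A floor of 3 counts was 0.328 to 0.375 CPM, and this floor covers counting error only. All 10 oocyte markers examined were tested, and their summed level overlapped between the groups. Of these, *Ooep* was lower with quercetin at an unadjusted edgeR p under 0.05, with a log2 fold change of -0.92. Of 10 cumulus and granulosa markers, *Amh*, *Foxl2* and *Ptx3* had no count in any pool, and the summed level of the list was 62.6 to 77.4 CPM in control and 79.0 to 84.8 CPM in quercetin pools, without overlap. *Cyp19a1*, aromatase, made up most of that sum. The part of these cells in the results below was not tested. Nothing in the labels says that the pools of a group were cultured separately, so p-values measure the spread between these pools. Levels are relative to each library, so a difference in total RNA per oocyte cannot be read from them.

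Levels of different genes were compared per kilobase of merged exons. *Ube2d3*, which codes for an E2 that works with many ligases, had the highest mean over the 6 pools, at 125 CPM per kb. It was followed by *Ube2d2a*, its close relative, at 64.0 CPM per kb, and by *Ube2t*, the E2 of the Fanconi anaemia DNA repair pathway, at 62.8 CPM per kb. The pools of *Ube2d2a* (50.9 to 71.0 CPM per kb) and *Ube2t* (49.3 to 81.1 CPM per kb) overlapped, so their order is not resolved. Those of *Ube2d3* ran from 45.7 to 167 CPM per kb, and in quercetin pool 3, its lowest, it stood below both. That place rests on the merged exon length. Without a length, *Ube2d3* was at 1120 CPM in quercetin pool 3, against 588 for *Ube2d2a* and 240 for *Ube2t*. The same 3 genes led when levels were set against the longest coding transcript instead, at 798, 298 and 272 CPM per kb.

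*Ube2g1*, an E2 of endoplasmic reticulum (ER) associated degradation, followed at 47.8 CPM per kb, then *Ube2c* at 43.9, *Ube2k* at 34.6 and *Ube2h* at 32.8 CPM per kb. *Ube2w* and *Ube2cbp* were lower, at 19.3 and 13.9 CPM per kb. *Ube2cbp* is counted by its symbol, although it codes for an E2 binding protein and not for a conjugating enzyme. *Ube2e1* stood at place 11 with 11.5 CPM per kb, *Ube2e3* at 17 with 4.12, *Ube2s* at 22 with 1.99 and *Ube2e2* at 26 with 0.648 CPM per kb. The order below the top depends on the length used. By the longest coding transcript, *Ube2s* stood at place 15 with 8.24 and *Ube2e3* at 17 with 8.05 CPM per kb, so their order turned. The lowest tested member was *Ube2v2*, a variant without the catalytic cysteine, at 0.299 CPM per kb. *Ube2e3* was at place 22 in the control means and 16 in the quercetin means.

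**Figure D1:**
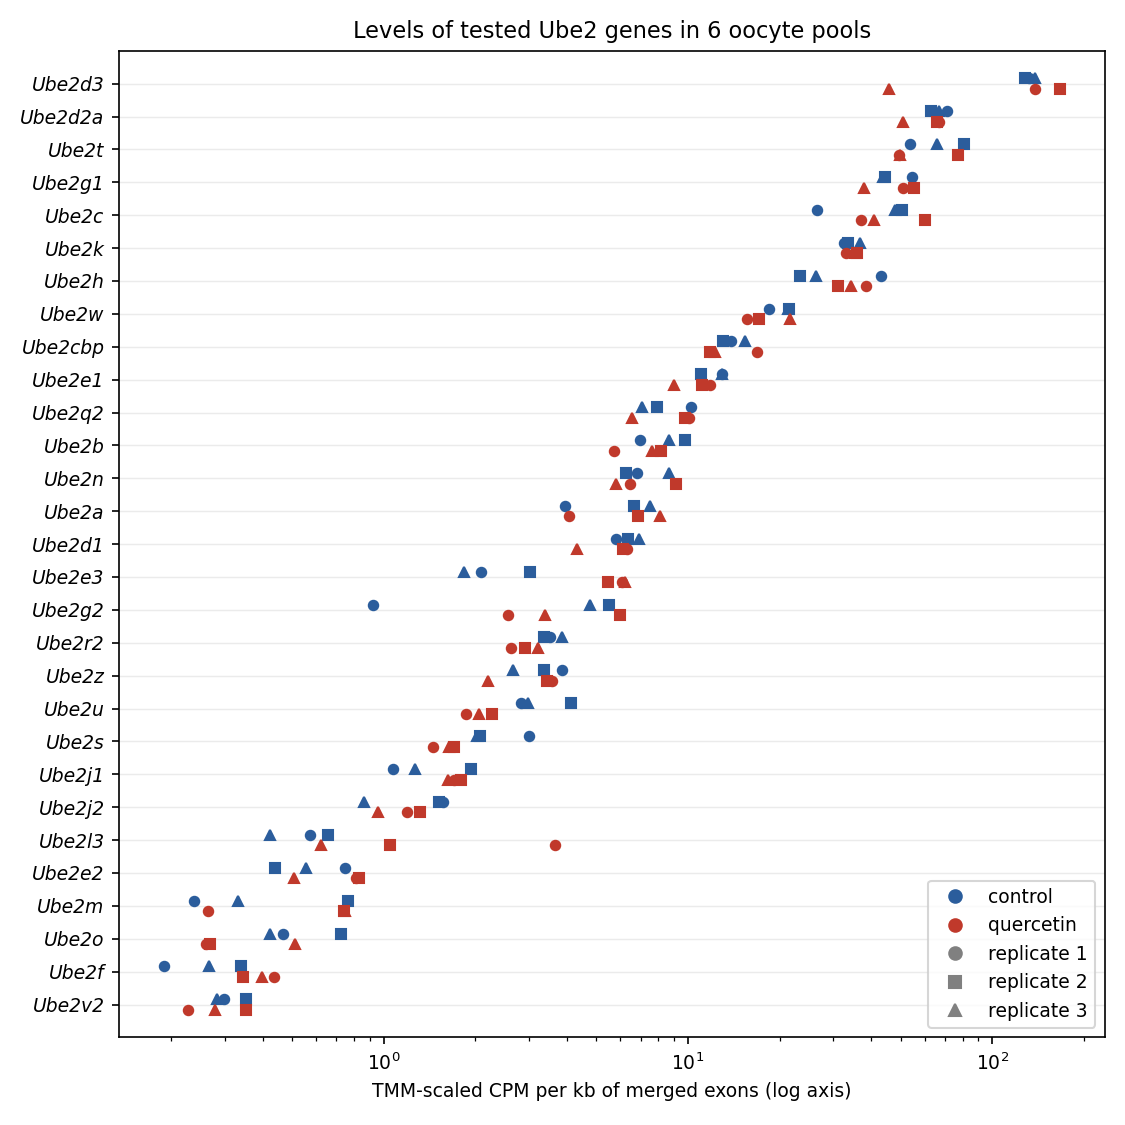
Level of the plotted *Ube2* genes, all tested members but 1, in the 6 pools, in TMM-scaled CPM per kilobase of merged exons on a log axis. Colours mark the groups and shapes the replicate numbers. Levels spanned from below 0.5 to above 100 CPM per kb. The 3 quercetin points of *Ube2e3* sit to the right of its 3 control points, and the third quercetin pool of *Ube2d3* sits apart from the other 5.

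The 7 members that were not tested had few or no reads. *Ube2dnl1*, *Ube2dnl2*, *Ube2l6* and *Ube2ql1* had no count in any pool, and *Ube2d2b* had 1 count in quercetin pool 3 and none elsewhere. *Ube2v1* had 3, 6 and 0 counts in control and 1, 1 and 2 in quercetin pools, and 69.1% of its exon length overlaps other annotated genes. *Ube2q1* had 6, 6 and 8 counts in control and 2, 5 and 4 in quercetin pools.

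Quercetin was compared with control over 11842 genes by the quasi-likelihood test of edgeR, with p-values adjusted by the Benjamini-Hochberg method. A gene was called where its fold change exceeded 2 and its adjusted p lay under 0.05. These criteria were met by 0 genes (0.0%) and by 0 of the 30 tested members, and the smallest adjusted p over all genes in this edgeR test was 0.073. At an unadjusted p under 0.05, edgeR gave 477 genes (4.03%) and 4 members (13.3%). Of these, *Ube2e3* and *Ube2l3* were higher with quercetin, as were 2.14% of all tested genes, and *Ube2s* and *Ube2u* lower, as were 1.89%. DESeq2 and edgeR's likelihood ratio test, run as alternatives, each called *Ube2e3* and no other member, among 12 and 16 genes in all, and limma-voom called no member. With a fold change over 2 added, the unadjusted criterion left 103 genes (0.87%) and 2 members, *Ube2e3* and *Ube2l3*.

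Pools did not overlap between the groups in 1254 tested genes (10.6%) and in 5 members, or 16.7% of those tested. *Ube2e3* and *Ube2f* were higher in every quercetin pool, a pattern of 5.42% of all tested genes, and *Ube2r2*, *Ube2s* and *Ube2u* lower, a pattern of 5.17%. Scaled by library size only, *Ube2f* overlapped, and *Ube2d1*, *Ube2d2a* and *Ube2e1* were lower in every quercetin pool, so that 6 of 30 members were, against 7.3% of all tested genes on that scaling. The log2 fold change was below 0 in 16 of 30 members (53.3%), against 53.6% of all tested genes, and its median was -0.04 over members and -0.03 over all tested genes. By library size only, the median of all genes was -0.11.

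**Figure D2:**
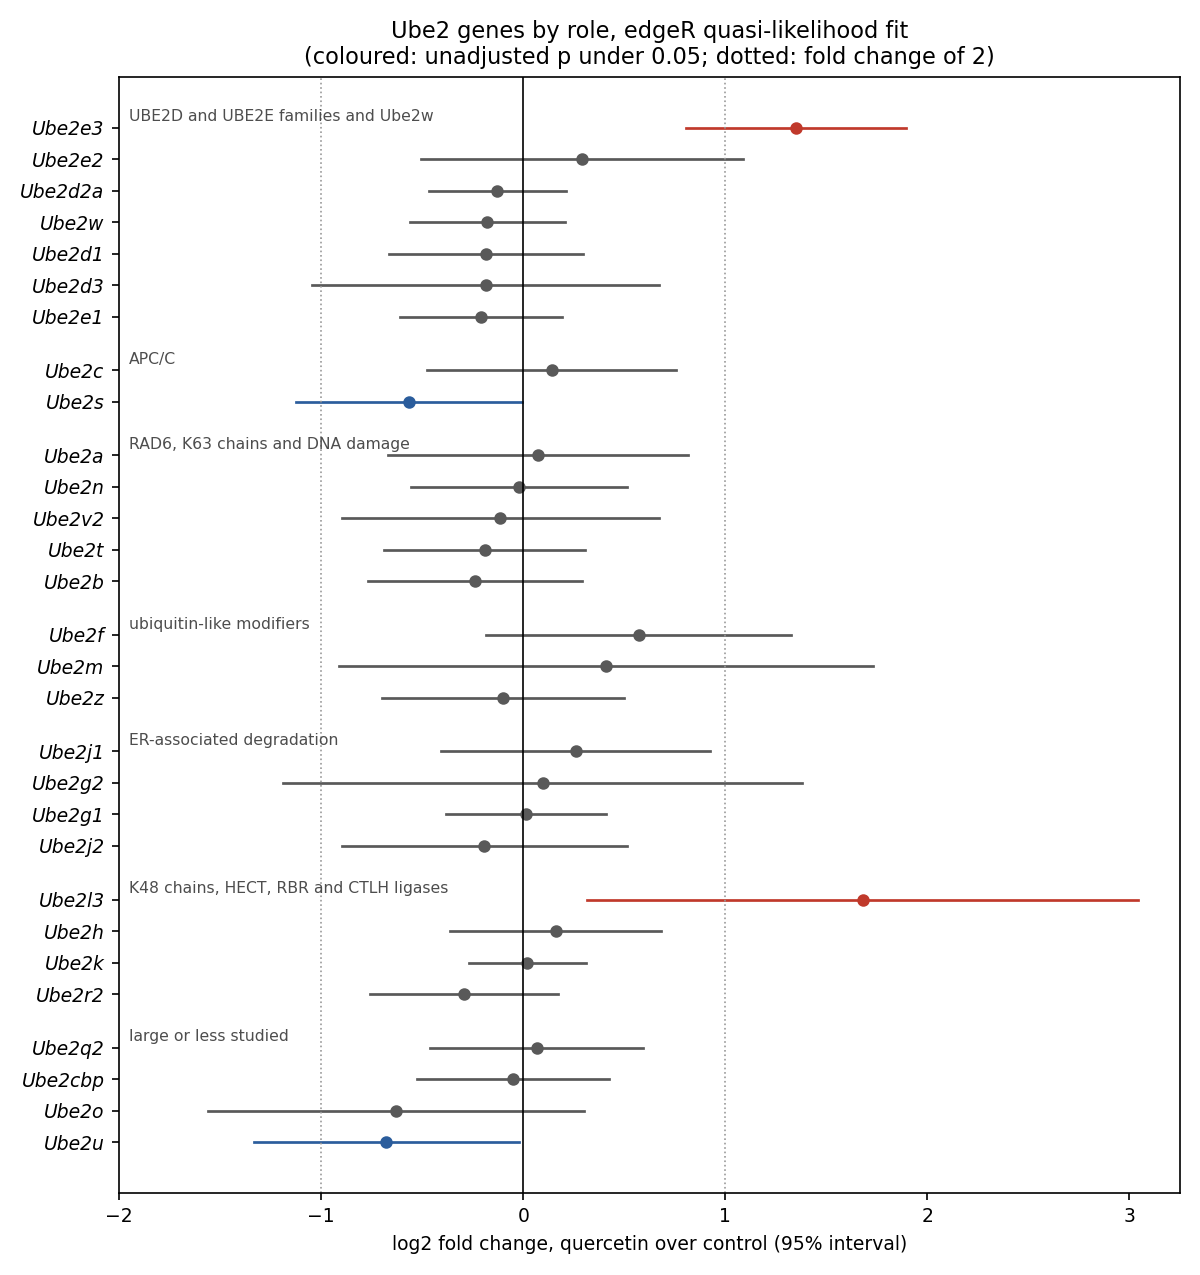
Log2 fold change, quercetin over control, of the tested *Ube2* genes by role, all but 1, with 95% intervals from edgeR's quasi-likelihood fit. Colour marks an unadjusted p under 0.05 and dotted lines a fold change of 2. *Ube2e3* (1.35) and *Ube2l3* (1.68) lie beyond the upper line, with a far wider interval for *Ube2l3*, and the intervals of *Ube2s* and *Ube2u* end just below 0.

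*Ube2e3* (ENSMUSG00000027011, chromosome 2 from 78868124 to 78921293, plus strand) had 82, 111 and 72 counts in control and 214, 219 and 233 in quercetin pools. The quercetin pools all lay above the control pools, and in CPM the nearest pair was 13.3 in control pool 2 and 23.9 in quercetin pool 2. The level was 10.2 ± 2.76 CPM in control and 26.0 ± 1.81 CPM in quercetin pools (SD, n = 3 each). Its log2 fold change was 1.35 with a standard error of 0.24 and a 95% interval from 0.81 to 1.90, which is a fold change between 1.75 and 3.72. The edgeR quasi-likelihood test gave an unadjusted p of 0.000326 and a Benjamini-Hochberg adjusted p of 0.525. In a two-sided exact permutation test the p was 0.1, the smallest that 3 pools against 3 allow. The unadjusted p stayed under 0.05 in each of the 14 alternatives run, with log2 fold changes from 1.22 to 1.59. *Cyp19a1* was also higher in all quercetin pools, at 74.4 ± 1.42 CPM against 64.1 ± 5.31 CPM in control (SD, n = 3 each). Its log2 fold change was 0.22 with an edgeR quasi-likelihood unadjusted p of 0.183. Of the other tested markers of cumulus and granulosa cells, *Has2* was at 0.05 and *Ptgs2* at -0.68, both with overlapping pools. Of the markers not tested, *Tnfaip6* had 0 counts in each control pool and 2, 8 and 4 in quercetin pools. *Fshr* had 18, 8 and 9 counts in control and 6, 7 and 13 in quercetin pools, with overlap. Overlap was also seen for *Inha* (0, 2 and 5 against 9, 3 and 0) and *Inhba* (0, 0 and 4 against 5, 5 and 3). The part of cumulus cells in the *Ube2e3* difference was not tested. No exon of *Ube2e3* overlaps another gene, and 1.27% of its 31-base words occur in transcripts of other genes.

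*Ube2e1* (ENSMUSG00000021774, chromosome 14 from 18282722 to 18331859, minus strand) had 514, 410 and 513 counts in control and 421, 453 and 342 in quercetin pools. The groups overlapped after TMM scaling, at 54.7 ± 4.84 CPM in control and 47.4 ± 6.49 CPM in quercetin pools (SD, n = 3 each). Scaled by library size only, every quercetin pool was lower. On that scaling the log2 fold change was -0.30, with an edgeR quasi-likelihood unadjusted p of 0.089. In the main fit the log2 fold change was -0.21 with a 95% interval from -0.61 to 0.19, and the adjusted p of the edgeR fit was 0.988. Of its exon length, 16.1% overlaps *Nkiras1* on the opposite strand, which had 1864 to 3121 counts and a log2 fold change of 0.18. Whether reads were counted by strand is not given in the sources used here, so reads from that stretch cannot be assigned with certainty. Of its 31-base words, 24.1% occur in transcripts of other genes. These limits carry over to the UBE2E shares and ratios below.

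*Ube2e2* (ENSMUSG00000058317, chromosome 14 from 18573575 to 18894267, minus strand) had 31, 17 and 23 counts in control and 30, 35 and 20 in quercetin pools. These small counts overlapped, at 2.70 ± 0.72 CPM in control and 3.31 ± 0.83 CPM in quercetin pools (SD, n = 3 each). The log2 fold change was 0.29 with a 95% interval from -0.50 to 1.09, and the adjusted p of the edgeR fit was 0.988. This interval includes a fold change of 2, so counts this small do not settle whether its level differed.

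**Figure D3:**
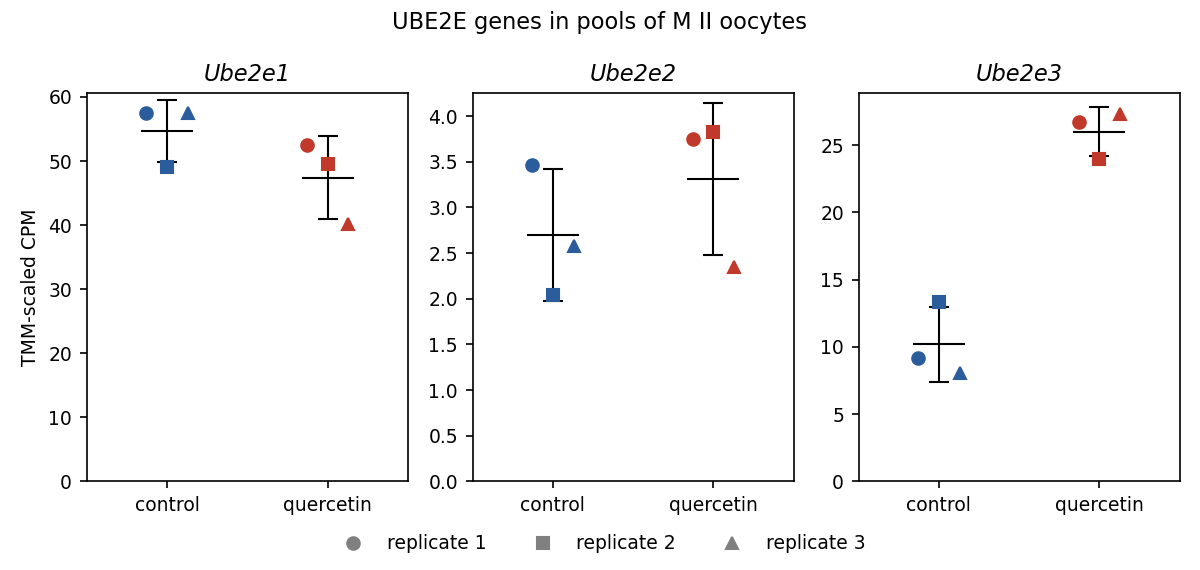
TMM-scaled CPM of *Ube2e1*, *Ube2e2* and *Ube2e3* in each pool, with shapes for the replicate numbers, a long bar for the mean and error bars of 1 SD (n = 3 per group). Each panel has its own axis from 0. The groups of *Ube2e1* and *Ube2e2* overlap, and those of *Ube2e3* lie apart at means of 10.2 and 26.0 CPM.

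The make-up of the UBE2E reads lay apart between the groups, while their sum overlapped. The 3 genes together had 627, 538 and 608 counts in control and 665, 707 and 595 in quercetin pools. *Ube2e3* made up 13.1% of these counts in control pool 1 (95% Wilson interval 10.7% to 15.9%), 20.6% in control pool 2 (17.4% to 24.3%) and 11.8% in control pool 3 (9.51% to 14.7%). In quercetin pools it made up 32.2% (28.7% to 35.8%), 30.98% (27.7% to 34.5%) and 39.2% (35.3% to 43.1%). The intervals cover counting error only, and no quercetin interval reached a control interval. The mean share was 15.2% ± 4.76 in control and 34.1% ± 4.42 in quercetin pools (SD, n = 3 each), with no test made on this share.

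*Ube2e1* remained the most abundant of the UBE2E genes in every pool, with 76.2% to 84.4% of their counts in control and 57.5% to 64.1% in quercetin pools. *Ube2e2* held 3.16% to 4.94% in control and 3.36% to 4.95% in quercetin pools. Per kilobase of merged exons, the level of *Ube2e1* was 6.17, 3.64 and 7.02 times that of *Ube2e3* in control and 1.94, 2.04 and 1.45 times in quercetin pools. By the longest coding transcript these ratios ran from 5.90 to 11.4 in control and from 2.34 to 3.30 in quercetin pools. *Ube2e3* therefore stayed below *Ube2e1* in all 6 pools on both scales.

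**Figure D4:**
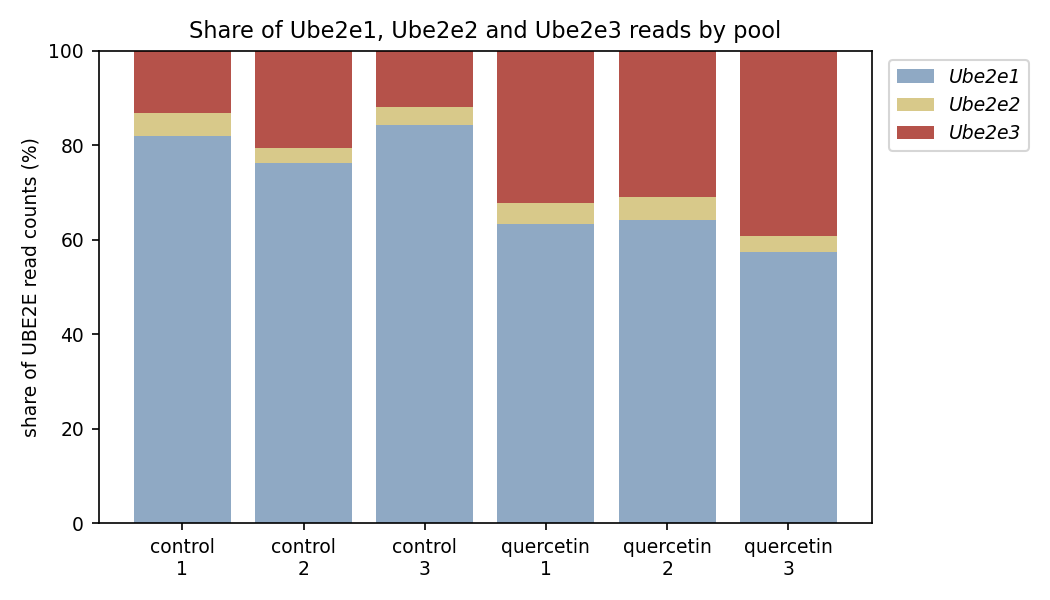
Share of the summed *Ube2e1*, *Ube2e2* and *Ube2e3* read counts taken by each gene, in percent, for each of the 6 pools. The *Ube2e3* segment covers 11.8% to 20.6% of the control bars and 30.98% to 39.2% of the quercetin bars.

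*Ube2c* (ENSMUSG00000001403, chromosome 2 from 164769898 to 164778822, plus strand) had 617, 1100 and 1114 counts in control and 771, 1431 and 905 in quercetin pools. Control pool 1 was the lowest and quercetin pool 2 the highest, and the groups overlapped. The level was 109 ± 34.5 CPM in control and 120 ± 32.3 CPM in quercetin pools (SD, n = 3 each). Its log2 fold change was 0.14 with a 95% interval from -0.48 to 0.76, and the adjusted p of the edgeR fit was 0.990. It turned to -0.10 without control pool 1 and, to the same 2 decimals, without quercetin pool 2. Its overlap with *Tnnc2* covers 22.8% of its exon length, and *Tnnc2* had no count in any pool.

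*Ube2s* (ENSMUSG00000060860, chromosome 7 from 4794546 to 4812590, minus strand) had 138, 89 and 93 counts in control and 60, 80 and 72 in quercetin pools. The quercetin pools lay below all control pools, with control pool 1 standing above the other 2. The level was 12.2 ± 2.83 CPM in control and 8.23 ± 0.655 CPM in quercetin pools (SD, n = 3 each). On the log2 scale the fold change was -0.56 with a standard error of 0.25 and a 95% interval from -1.12 to -0.005. The edgeR quasi-likelihood test gave an unadjusted p of 0.0484 and a Benjamini-Hochberg adjusted p of 0.988, and the two-sided exact permutation test gave the smallest possible p of 0.1. Unadjusted p-values were 0.073 by DESeq2, 0.056 by limma-voom and 0.062 by edgeR's likelihood ratio test. Scaled by library size only, the edgeR quasi-likelihood test gave 0.032. Without control pool 1 the log2 fold change was -0.35 with an unadjusted edgeR p of 0.206.

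*Ube2c* was above *Ube2s* in every pool. Per kilobase of merged exons, *Ube2c* was 8.84, 24.4 and 23.7 times the level of *Ube2s* in control and 25.4, 35.4 and 24.9 times in quercetin pools. The lowest ratio was that of control pool 1, in which *Ube2c* was at its lowest and *Ube2s* at its highest. Per kilobase of the longest coding transcript, a scale added after seeing the data, the ratio was 2.53, 6.98 and 6.77 in control and 7.26, 10.1 and 7.10 in quercetin pools. Ratios in the quercetin pools were above all control ratios, although control pools 2 and 3 came close to quercetin pools 1 and 3.

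**Figure D5:**
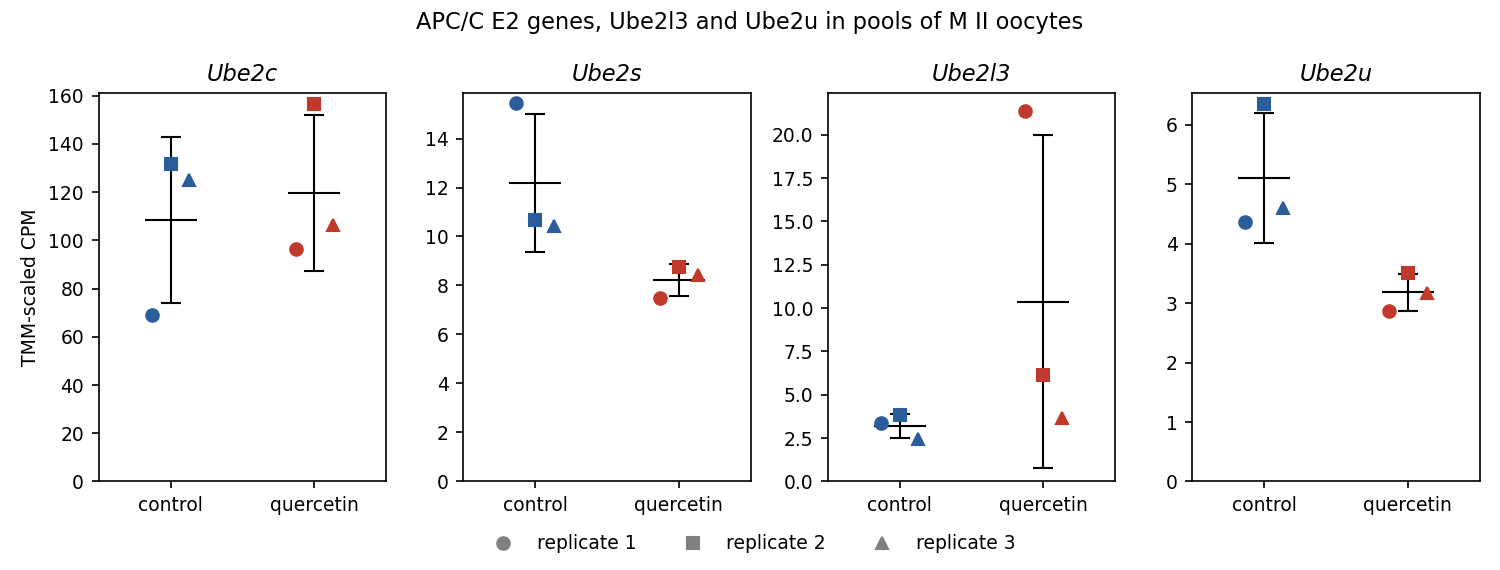
TMM-scaled CPM of *Ube2c*, *Ube2s*, *Ube2l3* and *Ube2u* in each pool, with shapes for the replicate numbers, a long bar for the mean and error bars of 1 SD (n = 3 per group). Each panel has its own axis from 0. *Ube2s* and *Ube2u* lie lower in all quercetin pools, *Ube2c* overlaps, and *Ube2l3* is drawn up by quercetin pool 1 at 21.4 CPM.

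Of the other UBE2D and related members, none had an unadjusted p under 0.05. *Ube2d3* (ENSMUSG00000078578, chromosome 3 from 135438149 to 135468198, plus strand) had 28922, 26270 and 30198 counts in control and 27024, 37415 and 9547 in quercetin pools. Quercetin pool 3 held the lowest count of the 6 and quercetin pool 2 the highest. The level was 3257 ± 121 CPM in control and 2862 ± 1550 CPM in quercetin pools (SD, n = 3 each), with a log2 fold change of -0.19 and a 95% interval from -1.04 to 0.67 in the edgeR fit. Without quercetin pool 3 the log2 fold change was 0.20. *Gm15361*, a processed pseudogene that shares sequence with *Ube2d3*, had 1072, 951 and 1174 counts in control and 1101, 1461 and 1239 in quercetin pools, so it was not low in that pool.

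The family's share of the library was lowest in the pool in which *Ube2d3* was lowest. All 37 members together took 0.582%, 0.586% and 0.582% of counts in control and 0.540%, 0.616% and 0.335% in quercetin pools. Of the family's counts, *Ube2d3* took 56.9% to 58.3% in the control group, against 59.1%, 61.1% and 35.2% in quercetin pools 1, 2 and 3. Without *Ube2d3* the family took 0.243% to 0.253% of counts in control and 0.217% to 0.239% in quercetin pools. These shares are of raw totals. After TMM scaling, chosen as a check after seeing the data, the same sum overlapped between the groups, at 2386 to 2427 CPM in control and 2335, 2600.4 and 2063 CPM in quercetin pools.

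*Ube2d2a* (ENSMUSG00000091896) had 7343, 6069 and 6873 counts in control and 6197, 6944 and 5012 in quercetin pools, and the groups overlapped after scaling. Its log2 fold change was -0.13 with a 95% interval from -0.47 to 0.21. *Ube2d1* (log2 fold change -0.19) and *Ube2w*, which places ubiquitin on N-termini (-0.18), also overlapped. Among the 7 tested genes of the UBE2D and UBE2E families with *Ube2w*, 5 were below 0, and the median was -0.18 on the log2 scale.

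The E2 enzymes of DNA damage and K63-linked chains overlapped between the groups. *Ube2t* (ENSMUSG00000026429, chromosome 1 from 134962565 to 134974162, plus strand) had 2324, 3272 and 2846 counts in control and 1908, 3404 and 2045 in quercetin pools. The level was 324 ± 66.2 CPM in control and 284 ± 76.8 CPM in quercetin pools (SD, n = 3 each), with overlapping groups and a log2 fold change of -0.19 (95% interval from -0.69 to 0.31). *Ube2a* and *Ube2b*, the mouse RAD6 enzymes that ubiquitinate PCNA and histones, had log2 fold changes of 0.07 and -0.24. *Ube2n*, the catalytic enzyme for K63-linked chains, was at -0.02, and *Ube2v2*, a cofactor of it, at -0.11. Of the 5 tested genes, 0 had an unadjusted p under 0.05 in the edgeR quasi-likelihood test, and 0 by DESeq2, limma-voom or the likelihood ratio test. That level was reached by 4.03% of all tested genes in the quasi-likelihood test, so 0 of 5 says little.

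Among E2 enzymes of ubiquitin-like modifiers, *Ube2f*, which loads NEDD8 for CUL5 ligases, had the highest log2 fold change. It had 15, 25 and 21 counts in control and 31, 28 and 30 in quercetin pools, at 2.34 ± 0.66 and 3.48 ± 0.41 CPM (SD, n = 3 each). All quercetin pools were above all control pools after TMM scaling, with the closest pair at 3.00 and 3.06 CPM. Its fold change on the log2 scale was 0.57 with a 95% interval from -0.18 to 1.33 and an unadjusted edgeR p of 0.122. *Ube2m*, the other NEDD8 enzyme, had 5 to 16 counts and a log2 fold change of 0.41 with an interval from -0.91 to 1.73. *Ube2z*, the enzyme for FAT10 and ubiquitin, was at -0.10.

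The 4 genes of ER-associated degradation had log2 fold changes from -0.19 (*Ube2j2*) to 0.26 (*Ube2j1*), both of them tail-anchored enzymes of the ER membrane. *Ube2g1* was at 0.01 with a 95% interval from -0.38 to 0.41. *Ube2g2*, the partner of the ligase gp78, had 20, 112 and 103 counts in control and 50, 133 and 70 in quercetin pools, so replicate 1 was the lowest in both groups. Its log2 fold change was 0.10 with an interval from -1.19 to 1.38.

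*Ube2l3* (ENSMUSG00000038965, chromosome 16 from 17152013 to 17202649, minus strand), the enzyme that serves HECT and RBR ligases such as Parkin, had the largest log2 fold change of the tested members. It had 30, 32 and 22 counts in control and 171, 56 and 31 in quercetin pools. The groups overlapped, and quercetin pool 1 stood far above the other 5 pools. The level was 3.22 ± 0.694 CPM in control and 10.4 ± 9.59 CPM in quercetin pools (SD, n = 3 each). On the log2 scale the fold change was 1.68 with a standard error of 0.60 and a 95% interval from 0.32 to 3.04. The edgeR quasi-likelihood test gave an unadjusted p of 0.0212 and a Benjamini-Hochberg adjusted p of 0.988, and the two-sided exact permutation p was 0.2. Without quercetin pool 1 the log2 fold change was 0.60 with an unadjusted edgeR p of 0.154. *Ydjc* overlaps 28.6% of its exon length and had 0 to 10 counts.

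Other enzymes of this group had smaller differences. *Ube2r2*, which builds K48-linked chains with cullin ligases, had 132, 118 and 144 counts in control and 88, 112 and 115 in quercetin pools. Its quercetin pools lay below its control pools, at 15.0 ± 1.03 and 12.2 ± 1.25 CPM (SD, n = 3 each). Its log2 fold change was -0.29 with a 95% interval from -0.76 to 0.17, an unadjusted edgeR p of 0.186 and an exact permutation p of 0.1. *Ube2k*, another maker of K48-linked chains, had the narrowest interval of the tested members, from -0.27 to 0.31 around 0.02. *Ube2h*, the enzyme of the CTLH ligase, was at 0.16, and 50.8% of its 31-base words also occur in transcripts of other genes.

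*Ube2u* (ENSMUSG00000069733, chromosome 4 from 100478849 to 100550147, plus strand), a less studied E2, had 39, 53 and 41 counts in control and 23, 32 and 27 in quercetin pools. All quercetin pools were below all control pools, at 5.10 ± 1.09 and 3.18 ± 0.31 CPM (SD, n = 3 each). On the log2 scale the fold change was -0.68 with a standard error of 0.29 and a 95% interval from -1.33 to -0.02. In the edgeR quasi-likelihood test the unadjusted p was 0.0445 and the Benjamini-Hochberg adjusted p 0.988, with an exact permutation p of 0.1. Unadjusted p-values were 0.104 by DESeq2, 0.054 by limma-voom and 0.046 by edgeR's likelihood ratio test. Without control pool 2, the highest pool, the log2 fold change was -0.49 with an unadjusted edgeR p of 0.171. *Ube2o*, a large enzyme that acts as both E2 and E3, had a log2 fold change of -0.63 with a 95% interval from -1.56 to 0.30 and overlapping pools. *Ube2q2* was at 0.07 and *Ube2cbp* at -0.05.

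Enzymes upstream of the family were measured in the same fit. Of 9 E1 genes, 8 were tested and 1 had an unadjusted p under 0.05 in the edgeR quasi-likelihood test. This was *Uba3*, the catalytic subunit of the NEDD8 E1, with 3980, 2991 and 3144 counts in control and 4707, 5365 and 3628 in quercetin pools. Its pools overlapped, its log2 fold change was 0.47 with a standard error of 0.17, and its unadjusted p was 0.0243. The median over the E1 genes was 0.06 on the log2 scale. Of the 8 E2 and E2-like genes with other names, 0 reached an unadjusted p of 0.05 in that test, DESeq2, limma-voom or the likelihood ratio test. *Tsg101*, a sorting protein without the catalytic cysteine, came nearest, with a log2 fold change of 0.30 and an edgeR unadjusted p of 0.133 in the quasi-likelihood fit. Both lists of 8 tested genes are too short to set against the 4.03% of all tested genes under 0.05 in that fit.

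The APC/C itself was tested in all 18 listed subunits, activators and inhibitors. Of these, 0 had an unadjusted p under 0.05 in the edgeR quasi-likelihood test, DESeq2, limma-voom or the likelihood ratio test. Over all tested genes the quasi-likelihood share was 4.03%, so 0 in a list this short says little about these 18. Their median log2 fold change was 0.03, with 11 above and 7 below 0. The smallest p belonged to *Fzr1*, the activator CDH1, which had 69, 96 and 50 counts in control and 28, 60 and 51 in quercetin pools. Its log2 fold change was -0.62, with an unadjusted edgeR p of 0.111. *Cdc20*, the activator used at anaphase, had 1266 to 1536 counts in control and 1471 to 1676 in quercetin pools, with overlapping levels.

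The ubiquitin-coding genes and the partners of UBE2E3 are lists of 4 genes each, of which 3 were tested. In both, 0 genes had an unadjusted p under 0.05 in the edgeR quasi-likelihood test, DESeq2, limma-voom or the likelihood ratio test. Lists of 3 are too short to set against the 4.03% of all tested genes in the quasi-likelihood test. *Ubb*, a polyubiquitin gene, had a log2 fold change of 0.25, with an unadjusted edgeR p of 0.127. *Nfe2l2*, which codes for NRF2, had 322, 262 and 312 counts in control and 369, 333 and 344 in quercetin pools. Its pools did not overlap after TMM scaling but did by library size only, and its log2 fold change was 0.26 with a standard error of 0.18 and an unadjusted edgeR p of 0.179. *Ipo11*, the importin that carries loaded UBE2E3, was at -0.35, *Cul3* at 0.09, and *Keap1*, with 0 to 8 counts, was not tested.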

How the data were processed

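Reads of SMART-Seq libraries were aligned by the authors, per the paper with Hisat2 to GRCm38.91, while the submitters' processing notes list TopHat2 2.0.6, CASAVA 1.8 and mm10. The deposited values are raw counts per Ensembl gene. The counting program and its settings for strand and multiple matches are not given in the sources used here. Symbols, coordinates and transcripts came from GENCODE M21 on GRCm38, which gave a symbol to 53360 of 53465 identifiers. Genes passing filterByExpr (minimum count 10) were compared with edgeR 4.0.16 (TMM, quasi-likelihood test without covariates, R 4.3.3). The Benjamini-Hochberg method was applied to all 11842 p-values. The paper states an unpaired Student's test for differences between groups in general and names no differential expression program. Its criteria for calling genes were used. At these criteria the paper reports genes in both directions, while the main test here called none. The paper lists *Ube2e3* among its up-regulated genes, gives qPCR primers for it and reports similar trends by qPCR for selected genes. The fit was also run on simulated counts in which 200 genes were changed, and that run is not used as support for any result here. Alternatives were DESeq2 1.42.0, limma-voom 3.58.1, edgeR's likelihood ratio test, other scalings and filters, leaving out each pool and a replicate block. Full values were given to the UBE2E and APC/C genes, members with an unadjusted p under 0.05 or non-overlapping groups, and the 3 highest members. Other lists are represented by genes with an unadjusted p under 0.05 or the smallest p, and further genes were added after their values were seen. Members and lists were chosen with earlier results of these data known. The values of 1 tested member are not reported here, though it stands in the counts, ranks and medians. Imaging, qPCR and human oocyte data were not analysed here.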

Additional observations from a re-analysis of the deposited data

How the results depend on the processing

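*Ube2e3* was called by DESeq2 (log2 fold change 1.37, adjusted p = 0.000913) and by edgeR's likelihood ratio test (1.35, adjusted p = 0.00656), and by no other setting. Each of these called 1 member. Over all genes, 0 were called in the main test, 12 by DESeq2, 16 by the likelihood ratio test, 3 with a filter of at least 1 count in total and 0 to 7 when 1 pool was left out. Under that filter and without any 1 pool, 0 members were called. Genes with an unadjusted p under 0.05 numbered 477, 780 with the filter of at least 1 count, and 241 (without control pool 2) to 1563 (without quercetin pool 3) when 1 pool was left out. Members at that level numbered 4, and 2 by DESeq2, 1 by limma-voom, 2 with the filter of at least 1 count and 1 to 4 when 1 pool was left out. *Ube2s* lost that level in every fit without 1 pool.

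The log2 fold change of *Ube2c* turned to -0.0992 without control pool 1 and -0.0993 without quercetin pool 2, with a highest value of 0.30. That of *Ube2d3* turned to 0.1987 without quercetin pool 3, from a lowest of -0.53. The cause was not tested. Leaving out 1 pool gave 1.22 to 1.59 for *Ube2e3*, -0.29 to -0.10 for *Ube2e1*, 0.13 to 0.52 for *Ube2e2*, -0.65 to -0.35 for *Ube2s*, 0.60 to 2.09 for *Ube2l3* and -0.78 to -0.49 for *Ube2u*. The difference in the *Ube2e3* share of UBE2E counts, 18.9 percentage points, ran from 16.4 to 21.7, the family median from -0.17 to 0.06, and the difference in the family's share of all counts, -0.0864 percentage points, from -0.146 to -0.00521, the last without quercetin pool 3.

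The labels number the pools 1 to 3 in each group. Deviations of same-numbered pools from their group means correlated at 0.30, 0.10 and -0.03. The mean between pools of different numbers was -0.06. Centring each group on its own mean ties that value to the others, so it is not a separate baseline. The numbers were not taken to pair the pools in the main test, and these correlations cannot settle whether they do. Each same-numbered pair stood above that mean, replicate 1 the furthest. With the replicate number as a block, 2 members, *Ube2e3* and *Ube2l3*, had an unadjusted p under 0.05, and *Ube2e3* stood at 1.38. Members with few reads, such as *Ube2e2*, *Ube2m* and *Ube2o*, have intervals wide enough to hold a fold change of 2 or close to it.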
